A study of Mus musculus with 6 samples.

Results

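The fibrous collagens of these sorted cartilage cells were followed through 10 genes, taken by name from the 54532 genes of the count table. They are *Col1a1* and *Col1a2* for collagen I, *Col3a1* for collagen III, *Col5a1* and *Col5a2* for collagen V, *Col6a1*, *Col6a2* and *Col6a3* for collagen VI, *Col12a1* for collagen XII and *Col14a1* for collagen XIV. All 10 had enough reads to be tested, and their coordinates are given on mm10. The libraries came from *Gli1-CreERT2; tdTomato* mice (c57BL/6), 1 month old and harvested 1 day after tamoxifen (TAM), so both populations share the alleles and the drug. Gli1+ cells are the tdTomato+ and Gli1- cells the tdTomato- fraction of cells negative for CD45, CD31 and Ter119, with 3 libraries each. Because Cre is made from the *Gli1* locus, the reporter marks cells that expressed *Gli1* when TAM was given and the progeny of those cells. The study's text gives costal cartilage as the source and describes release of the cells with protease and an overnight collagenase digest, whereas the labels name the growth plate. The number of mice behind a library is not given in the sources used here.

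Fibrous collagens carry tension in tendon, bone, skin and the perichondrium, the fibrous sheath around cartilage, while the matrix inside cartilage is built on collagen II. Collagens I, III and V form fibrils, with collagen V setting their nucleation and width. Collagen VI forms beaded filaments around cells and is a hallmark of the pericellular matrix of chondrocytes, and collagens XII and XIV sit on the surface of fibrils. In a bulk library, fewer cells of a type and less RNA per cell cannot be told apart.

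The libraries held 17114101 to 18602482 counts, and levels are given as CPM, the share of a library's counts in units fixed for all libraries, after TMM scaling, which corrects for composition. *Gli1* itself lay between 4.55 and 7.98 CPM in Gli1+ cells and between 0.724 and 2.43 CPM in Gli1- cells, without overlap. In Gli1+ replicate 1 only 15000 genes had a count, against 20666 to 23360 in the other libraries. All 8 chondrocyte markers examined were tested, and *Col2a1* was at 2130 to 13500 CPM. Both libraries of replicate 2 were rich in cartilage collagens (23600 and 30100 CPM summed over 8 genes, against 5020 to 6700 CPM in the other 4). Neutrophil markers reached 3190 CPM over 6 genes in Gli1- replicate 1, against 9.45 to 76.9 CPM elsewhere. Markers of endothelial cells summed to at most 13 CPM and erythroid markers to at most 19.1 CPM.

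The 10 genes did not move as one group. The fitted levels of the collagen VI genes were above those of Gli1- cells by 1.79-fold for *Col6a1*, 1.78-fold for *Col6a2* and 2.63-fold for *Col6a3*. Those of *Col1a2*, *Col3a1*, *Col5a2* and *Col14a1* were 2.28- to 2.83-fold above in Gli1- cells. With 5 log2 fold changes (log2FC, Gli1+ over Gli1-) above 0 and 5 below, their median was -0.21, beside 0.001 over all 14801 genes tested. The members' median became 0.29 when Gli1- replicate 2 was left out and -0.72 when Gli1+ replicate 1 was. A gene counted as differentially expressed if edgeR's quasi-likelihood test gave an adjusted p under 0.05 together with a |log2FC| above 1. By this rule 0 of the 10 passed, as did 0 of all genes (0%), and the adjusted p was 0.9999 for each member. At an unadjusted p under 0.05 there was 1 member, *Col5a2*, against 514 of all genes (3.47%). DESeq2 without a block called 0 members, and over all genes it called only 15 higher and 15 lower. Likewise, limma-voom called 0 members and 0 of all genes. The libraries of the populations did not overlap for 2 members that were higher in Gli1+ cells (4.04% of all genes) and for 1 that was lower (4.45% of all genes). Within replicate numbers, 3 members were higher in Gli1+ cells in 3 of 3 comparisons (17.6% of all genes) and 4 were lower in 3 of 3 (19.8% of all genes).

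Since the study took Gli1+ and Gli1- cells from shared mice, a second fit blocked on the replicate number. Across genes, libraries of number 2 and of number 3 deviated in the same way (r = 0.72 and 0.471). For number 1 this was weaker (r = 0.223), and Gli1+ replicate 1 was slightly closer to Gli1- replicate 3 (r = 0.274). In edgeR with the block 0 members and 0 of all genes passed, and 6 members had an unadjusted p under 0.05, as did 1274 of all genes. Under DESeq2 with that replicate block, 3 members were called. It called *Col6a3* higher in Gli1+ cells (0.777% of all genes were called in this direction) and *Col3a1* and *Col5a2* lower (2.11% of all genes).

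**Figure D1:**
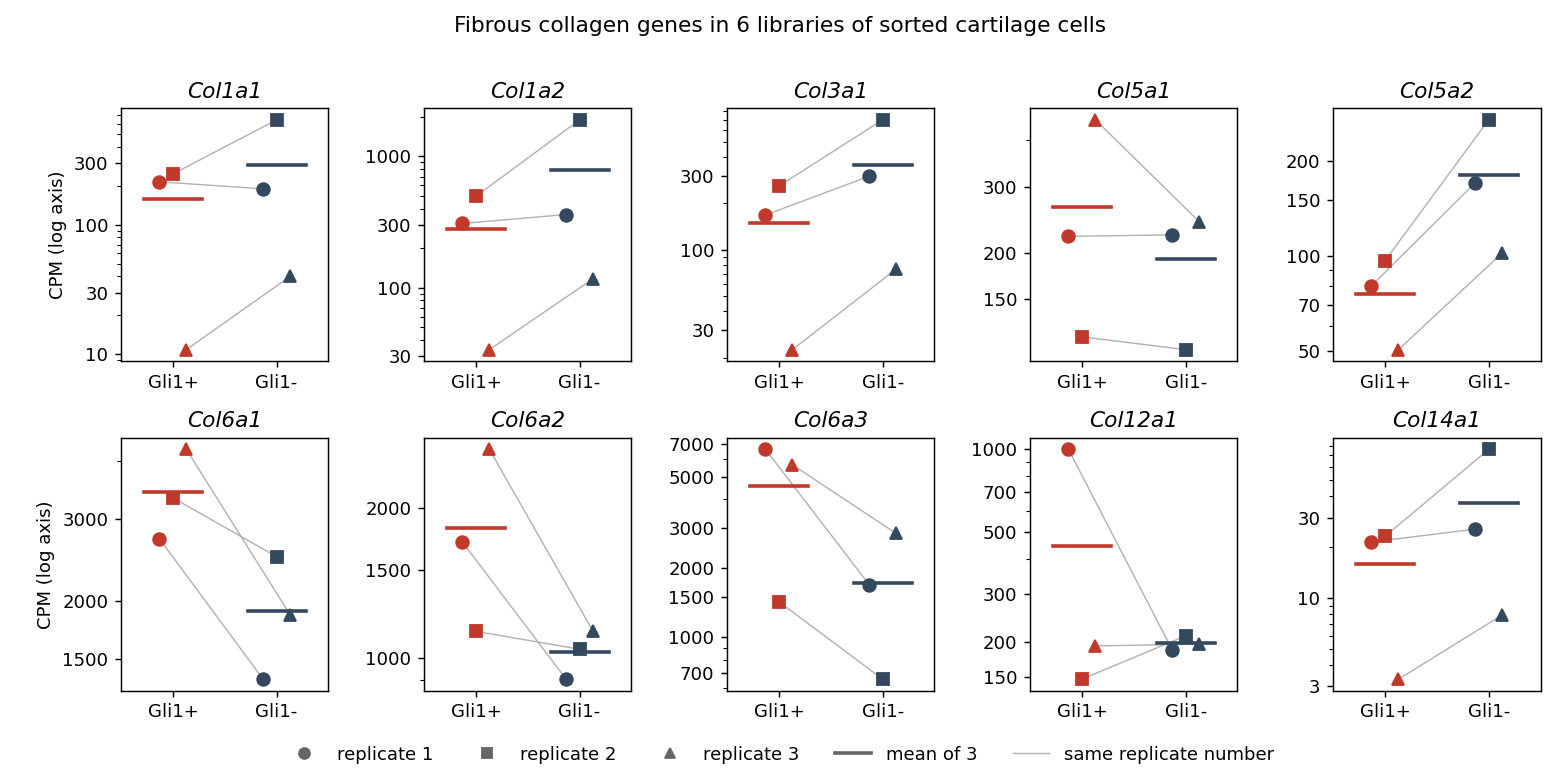
CPM on a log axis (each panel has its own scale) of the 10 fibrous collagen genes in the 3 Gli1+ (red) and 3 Gli1- (dark) libraries. Symbols mark replicate numbers, thick bars the mean of 3 and thin lines the same number. For *Col3a1* all 3 lines run upward to Gli1- cells, for example from 22.5 to 74.9 CPM in replicate 3, and for *Col6a3* all 3 run downward.

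Collagen I is the main fibril protein of bone and tendon. *Col1a1* (ENSMUSG00000001506, chromosome 11, 94936224 to 94953042, plus strand), which encodes its alpha-1 chain, was at 214, 246 and 10.9 CPM in Gli1+ replicates 1, 2 and 3. In Gli1- cells it was at 189, 643 and 39.9 CPM. The spread inside each population, 22.5-fold in Gli1+ and 16.1-fold in Gli1- cells, was larger than the 1.85-fold difference between them. The populations overlapped, and *Col1a1* was lower in Gli1+ cells in 2 of 3 replicate numbers. Its log2FC was -0.89 (standard error 1.16, unadjusted p = 0.465, edgeR), with a 95% interval from -3.56 to 1.78. Without Gli1- replicate 2 it was 0.40, in a fit without a block that kept Gli1+ replicate 2. Blocked on the replicate number over all libraries, edgeR gave -1.03 with a standard error of 0.46.

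*Col1a2* (ENSMUSG00000029661, chromosome 6, 4504814 to 4541544, plus strand), which encodes the partner chain of collagen I, was at 308, 495 and 33.8 CPM in Gli1+ cells. It was at 360, 1890 and 117 CPM in Gli1- cells. The library order was close to that of *Col1a1*, with Gli1- replicate 2 highest and Gli1+ replicate 3 lowest. Unlike *Col1a1*, it was lower in Gli1+ cells in 3 of 3 replicate numbers. The log2FC was -1.50 (standard error 1.15, unadjusted p = 0.227, edgeR) and -1.33 with a standard error of 0.43 in edgeR's fit with the replicate block. Without Gli1- replicate 2 it was 0.18.

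Collagen III forms the thin fibrils of pliable connective tissue and mixes with collagen I. Its gene *Col3a1* (ENSMUSG00000026043, chromosome 1, 45311538 to 45349706, plus strand) was at 168, 259 and 22.5 CPM in Gli1+ cells. In Gli1- cells it was at 300, 697 and 74.9 CPM. The populations overlapped, yet each Gli1+ library lay below the Gli1- library of the same number, with log2 differences of -0.84, -1.43 and -1.73 for replicates 1, 2 and 3. The log2FC was -1.25 (standard error 0.97, unadjusted p = 0.232, edgeR). With the replicate block the standard error was 0.29 at a log2FC of -1.33 (unadjusted p = 0.00489, adjusted p = 0.381, edgeR). DESeq2 with the block called *Col3a1* at a log2FC of -1.34 (adjusted p = 0.00608), and over the alternatives its adjusted p lay between 0.00608 and 1.0. Without Gli1- replicate 2 the log2FC was -0.37.

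**Figure D2:**
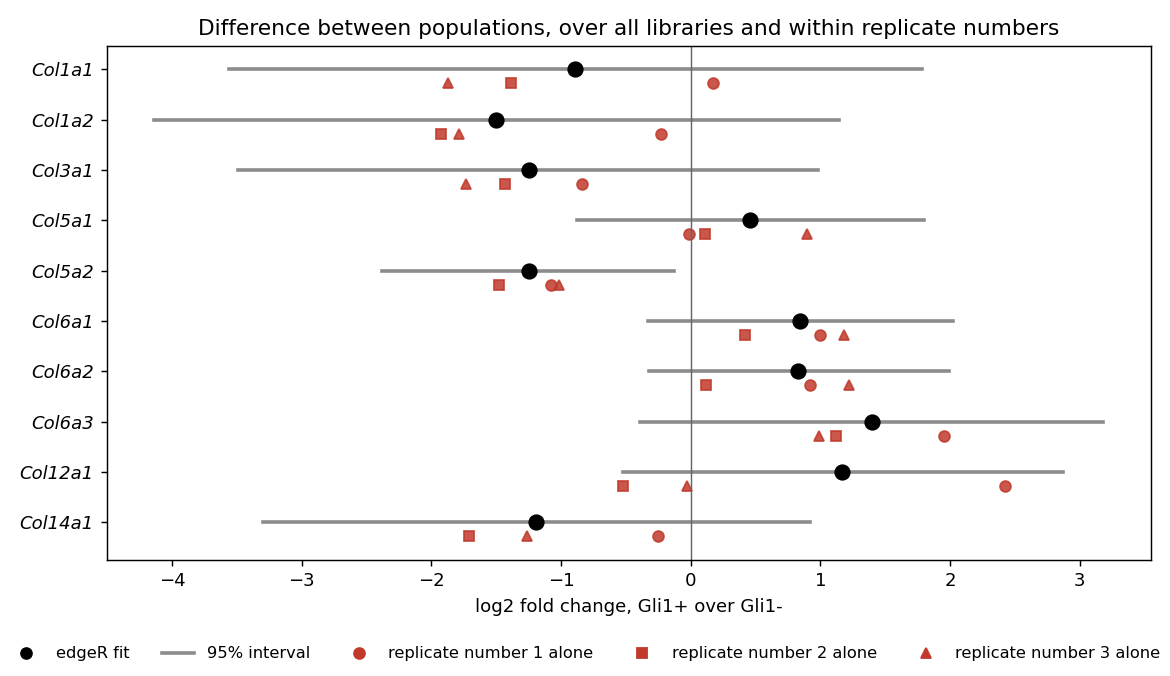
Log2 fold change of Gli1+ over Gli1- cells for each gene. Black points and grey bars are edgeR's estimate over all 6 libraries with its 95% interval, and red symbols are the CPM difference within 1 replicate number. The interval of *Col5a2*, from -2.38 to -0.13, is the only 1 of the 10 that leaves out 0. The red symbols of *Col3a1* and *Col6a3* span less than their wide bars, and those of *Col5a2* and *Col6a1* lie closer together still.

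Collagen V is a minor part of collagen I fibrils that starts their assembly, and its chains did not go together. *Col5a2* (ENSMUSG00000026042, chromosome 1, 45374321 to 45503282, minus strand) was at 80.4, 96.4 and 50.5 CPM in Gli1+ cells and at 170, 269 and 102 CPM in Gli1- cells. No Gli1+ value reached the lowest Gli1- value (p = 0.1 in a 2-sided exact permutation test, which cannot go lower with groups of 3). The log2FC was -1.25 (standard error 0.49, unadjusted p = 0.0331, edgeR) and leaving out single libraries gave -1.54 to -0.89. DESeq2 with the block called it at -1.21 (adjusted p = 0.00735), with adjusted p-values from 0.00735 to 1.0 over the alternatives. *Col5a2* is the neighbour of *Col3a1*, tail to tail and 24614 bases away, with 0 genes of the table between them.

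*Col5a1* (ENSMUSG00000026837, chromosome 2, 27886425 to 28039514, plus strand), the chain shared by most collagen V molecules, was at 221, 119 and 453 CPM in Gli1+ cells. It was at 223, 110 and 242 CPM in Gli1- cells. The log2 difference was 0.90 for replicate number 3, against -0.01 and 0.11 for numbers 1 and 2. The log2FC was 0.46 (standard error 0.58, unadjusted p = 0.449, edgeR; 95% interval -0.88 to 1.80), and without Gli1+ replicate 3 it was -0.19. *Col5a3*, which encodes the third chain and is no member of the 10, was at 330, 482 and 2340 CPM in Gli1+ against 156, 119 and 394 CPM in Gli1- cells. All 3 replicate numbers put Gli1+ above Gli1- cells, with a log2FC of 2.23 (standard error 0.87, unadjusted p = 0.0325, edgeR). DESeq2 with the block called *Col5a3* at 1.88 (adjusted p = 0.000214, between 0.000214 and 1.0 over the alternatives). Its log2FC was 0.85 without Gli1+ replicate 3 and at most 2.93 with another library left out. Within collagen V, *Col5a2* was thus lower and *Col5a3* higher in Gli1+ cells in that test.

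Per length, collagen VI was the most abundant of the 6 collagen types followed here. *Col6a1* (ENSMUSG00000001119, chromosome 10, 76708792 to 76726168, minus strand) was at 2720, 3330 and 4230 CPM in Gli1+ cells and at 1360, 2490 and 1870 CPM in Gli1- cells. Its lowest Gli1+ value exceeded its highest Gli1- value (p = 0.1, again the minimum of the 2-sided exact permutation test). Its log2FC was 0.84 (standard error 0.51, unadjusted p = 0.137, edgeR) with a range of 0.65 to 1.06 when single libraries were left out. Among the 10 genes *Col6a1* varied little between libraries, 3.11-fold from lowest to highest, against 58.9-fold for *Col1a1*.

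*Col6a2* (ENSMUSG00000020241, chromosome 10, 76595762 to 76623630, minus strand) lies 85161 bases from *Col6a1* on the same strand, with 1 gene between. It was at 1710, 1130 and 2630 CPM in Gli1+ against 905, 1040 and 1130 CPM in Gli1- cells. The populations did not overlap, though Gli1+ replicate 2 and Gli1- replicate 3 were nearly level. The log2FC of 0.83 (standard error 0.50, unadjusted p = 0.135, edgeR) was close to that of *Col6a1*, and dropping Gli1+ replicate 3 gave 0.46, dropping Gli1+ replicate 2 gave 1.08.

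*Col6a3* (ENSMUSG00000048126, chromosome 1, 90765923 to 90843971, minus strand) encodes the long chain that completes the collagen VI molecule. It was at 6610, 1430 and 5660 CPM in Gli1+ cells and at 1700, 657 and 2840 CPM in Gli1- cells. Replicate 2 was lowest in both populations, the reverse of collagens I and III, and the populations overlapped. Within replicate numbers the differences were 1.95, 1.12 and 0.99 on the log2 scale. The log2FC was 1.4 (standard error 0.78, unadjusted p = 0.109, edgeR), and 1.36 with a standard error of 0.31 in the fit with the replicate block. DESeq2 with the block called *Col6a3* at 1.34 (adjusted p = 0.00726, between 0.00726 and 1.0 over the alternatives).

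Collagens XII and XIV bind fibril surfaces and are markers of dense connective tissue. *Col12a1* (ENSMUSG00000032332, chromosome 9, 79598991 to 79718831, minus strand) was at 1000, 147 and 194 CPM in Gli1+ cells and at 188, 211 and 197 CPM in Gli1- cells. It was 1 library, Gli1+ replicate 1, that stood above the other 5, the library in which fewest genes had a count; the part of that in the value was not tested. The log2FC was 1.17 (standard error 0.74, unadjusted p = 0.15, edgeR), and without that library -0.24. *Col14a1* (ENSMUSG00000022371, chromosome 15, 55307750 to 55520803, plus strand) was the rarest member, at 21.5, 23.2 and 3.31 CPM in Gli1+ against 25.6, 76.0 and 7.93 CPM in Gli1- cells. Its library order was that of *Col1a2* except that Gli1+ replicate 2 and Gli1- replicate 1 changed places, and it was lower in Gli1+ cells in 3 of 3 replicate numbers. The log2FC was -1.19 (standard error 0.92, unadjusted p = 0.231, edgeR), and -0.12 without Gli1- replicate 2. The antisense gene *Gm18787* overlaps *Col14a1* and held 4.81% as many reads. Whether reads were counted by strand is not given in the sources used here, so reads of the overlap cannot be assigned.

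Levels of different genes were compared as CPM per kilobase, using the gene length in the table. *Col6a1* was highest of the 10 in every library, at 782 ± 174 (SD, n = 3) in Gli1+ and 436 ± 129 in Gli1- cells. *Col6a3* followed at 382 ± 230 and 145 ± 91.4, and *Col6a2* at 219 ± 91.0 and 123 ± 13.4. *Col6a3* and *Col6a2* were not separated by their spread in either population. The other 7 members lay between 2.28 and 31.1 in Gli1+ and between 5.21 and 63.4 in Gli1- cells. In 5 of 6 libraries every collagen VI chain was above every other member. The exception was Gli1- replicate 2, where *Col1a2* (152) stood above *Col6a2* (125) and, like *Col1a1* (98.0) and *Col3a1* (71.0), above *Col6a3* (54.9). The table's lengths exceed those of the longest coding transcript. With the longest coding transcript of GENCODE M21 instead, 5348 against 12426 bases for *Col1a2*, the level of *Col1a2* was 147 ± 179 in Gli1- cells rather than 63.4 ± 77.2, and again the exception was Gli1- replicate 2.

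Ratios of chains within a library do not depend on scaling between libraries. For *Col1a1* to *Col1a2*, whose products join in one molecule with the *Col1a1* chain in excess, the ratio of reads per length was 1.31, 0.941 and 0.612 in Gli1+ and 0.996, 0.645 and 0.647 in Gli1- cells. It stayed within 0.612 to 1.31 while the genes themselves varied 58.9-fold and 55.9-fold between libraries, and the populations overlapped (log2 difference 0.29, 2-sided exact permutation test, p = 0.7). With transcript lengths the same ratios were 0.292 to 0.626, so the excess of *Col1a1* in Gli1+ replicate 1 depended on the length used. For *Col6a1* to *Col6a2* the ratio was 3.02, 5.59 and 3.06 in Gli1+ and 2.86, 4.56 and 3.16 in Gli1- cells, highest in replicate 2 of both. The log2 difference was 0.11 (2-sided exact permutation test, p = 0.7).

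For *Col5a1* to *Col5a2* the ratio was 3.11, 1.39 and 10.1 in Gli1+ cells and 1.48, 0.462 and 2.68 in Gli1- cells. It was higher in Gli1+ cells in each replicate number, by 1.07, 1.59 and 1.92 on the log2 scale, although the populations overlapped (log2 difference 1.53, 2-sided exact permutation test, p = 0.3). The ratio of the collagen VI chains to the chains of collagens I and III, a comparison chosen after seeing the data, was 18.5, 9.80 and 263 in Gli1+ and 6.35, 2.33 and 34.6 in Gli1- cells. It too was higher in Gli1+ cells in each number, by 1.54, 2.07 and 2.92 on the log2 scale (log2 difference 2.18, 2-sided exact permutation test, p = 0.4). The *Col6a3* to *Col6a1* ratio ran from 0.0964 to 0.891 and was lowest in replicate 2 of both populations (log2 difference 0.49, 2-sided exact permutation test, p = 0.6). For *Col3a1* to *Col1a1* the log2 difference was -0.31 (2-sided exact permutation test, p = 0.6). Set against the 8 cartilage collagens, the 10 fibrous genes together stood at ratios of 2.0, 0.301 and 1.77 in Gli1+ and 0.676, 0.212 and 1.07 in Gli1- cells (log2 difference 0.93, 2-sided exact permutation test, p = 0.5). Within replicate numbers the log2 differences were 1.56, 0.51 and 0.72. The summed level of the 10 was mostly collagen VI in every library, so this ratio chiefly followed collagen VI. *Col1a2*, *Col3a1*, *Col5a2* and *Col14a1* were themselves lower in Gli1+ cells in every replicate number. Over the 6 ratios, without the one chosen after seeing the data, the adjusted p was 0.7 for each (2-sided exact permutation test). With libraries paired by replicate number, an exact test over sign changes, added after seeing the data, gave p = 0.25 for *Col5a1* to *Col5a2*, for fibrous to cartilage collagens and for collagen VI to collagens I and III, the smallest that 3 pairs allow, and 0.5 to 0.75 for the other ratios.

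**Figure D3:**
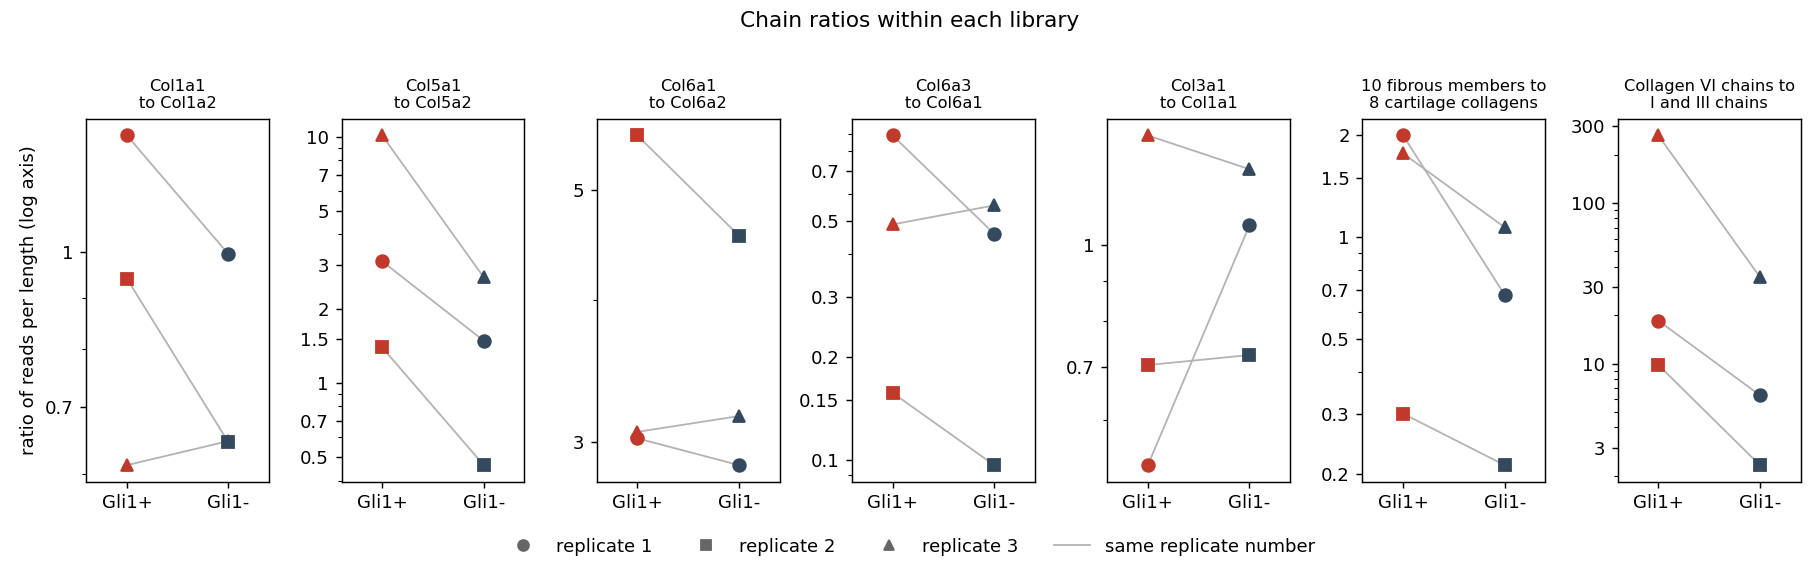
Ratio of reads per length between chains in each library, on log axes that differ between panels. Red symbols are Gli1+ and dark symbols Gli1- libraries, symbols mark replicate numbers, and lines join the same number. All 3 lines fall from Gli1+ to Gli1- for *Col5a1* to *Col5a2* and for collagen VI to collagens I and III, whereas for *Col6a1* to *Col6a2* replicate 2 (5.59 and 4.56) stands above the other numbers in both populations.

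The promoters of members that stood on opposite sides are shown as sequence. RefSeq windows on GRCm38.p6, from 250 bases before to 50 after an annotated start, were matched for 6 of the 10 members, which are *Col1a2*, *Col3a1*, *Col5a1*, *Col6a1*, *Col6a2* and *Col6a3*. *Col1a1*, *Col5a2*, *Col12a1* and *Col14a1* were not matched. Capitals mark matches to the spelling of the CCAAT box (CCAAT), the GC box (GGGCGG) and the TATA box (TATAAA). These were searched on both strands without overlap between motifs, whatever their distance from the start. *Col1a2* and *Col3a1* are printed as examples of members lower in Gli1+ cells in every replicate number, and *Col6a3* as an example of those higher. They do not represent all members of a side. Of these, *Col1a2* was not called by DESeq2 with the replicate block (adjusted p = 0.0559).
Col1a2: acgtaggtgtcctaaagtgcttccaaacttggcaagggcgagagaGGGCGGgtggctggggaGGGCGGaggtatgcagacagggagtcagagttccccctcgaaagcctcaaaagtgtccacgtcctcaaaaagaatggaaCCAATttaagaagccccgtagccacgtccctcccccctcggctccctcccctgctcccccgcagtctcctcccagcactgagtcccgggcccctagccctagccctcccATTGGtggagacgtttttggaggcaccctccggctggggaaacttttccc
Col3a1: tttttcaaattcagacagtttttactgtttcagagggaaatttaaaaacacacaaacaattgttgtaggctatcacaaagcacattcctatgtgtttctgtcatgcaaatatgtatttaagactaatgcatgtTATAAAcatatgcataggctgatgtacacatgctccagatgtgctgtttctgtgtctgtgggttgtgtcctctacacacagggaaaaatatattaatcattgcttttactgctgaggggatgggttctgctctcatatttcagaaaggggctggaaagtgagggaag
Col6a3: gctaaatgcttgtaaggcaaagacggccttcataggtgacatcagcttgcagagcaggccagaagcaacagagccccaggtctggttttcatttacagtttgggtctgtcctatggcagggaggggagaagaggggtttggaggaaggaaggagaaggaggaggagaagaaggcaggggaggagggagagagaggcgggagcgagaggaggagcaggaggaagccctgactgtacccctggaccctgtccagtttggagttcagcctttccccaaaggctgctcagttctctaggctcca
These windows are chr6:4505368-4505667 on the plus strand, chr1:45311288-45311587 on the plus strand and chr1:90843922-90844221 on the minus strand. That of *Col1a2* held 2 CCAAT boxes, 1 of them as the reverse complement at the start itself, and 2 GC boxes. That of *Col3a1* held 1 TATAAA match that starts 117 bases upstream, and that of *Col6a3* held none of the 3 motifs. The window of *Col6a1* also held none, while those of *Col5a1* and *Col6a2* held GC boxes only. A CCAAT box was present in 37.4% of all 32851 windows, a GC box in 35.7% and a TATA box in 13.6%. The GC content was 37.7% for *Col3a1* against 56.3% for *Col6a3* and 61.0% for *Col1a2*, beside a median of 52.7% over all windows.

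Beside the 10 members, 3 lists of matrix genes were read from the same fit. Of 8 cartilage collagens 1 had a log2FC above 0 and 0 were called, with a median of -0.28. This median was not stable in direction, at 0.97 when Gli1- replicate 2, 0.14 when Gli1+ replicate 1 and -1.18 when Gli1+ replicate 2 was left out. DESeq2 with the block called *Col10a1*, the collagen of hypertrophic cartilage, lower. It was named after its values were seen, at 34.6, 285 and 71.9 CPM in Gli1+ against 161, 1780 and 210 CPM in Gli1- cells. The populations overlapped, and the log2FC of *Col10a1* was -2.46 (standard error 1.13, unadjusted p = 0.0612, edgeR). Without Gli1- replicate 2 it was -0.53. *Col2a1*, the core of the cartilage fibril, was at 6110 ± 5310 CPM in Gli1+ against 6240 ± 6330 CPM in Gli1- cells (SD, n = 3), a log2FC of -0.03 (standard error 0.91) that became -1.05 when Gli1+ replicate 2 was dropped and 1.21 when Gli1- replicate 2 was. Of 15 genes that help to build or bind collagen fibres, 2 had a log2FC above 0 and 13 below, with a median of -0.64 and 0 called. Leaving out Gli1- replicate 2 took this median to 0.18. DESeq2 with the block called 1 of them higher, *Fn1*, and 5 lower. These were *Adamts2* and *Pcolce*, which act in the trimming of procollagens, and *Dpt*, *Fmod* and *Tnxb*, whose products bind fibrils, and the 5 were named after their values were seen. In edgeR without Gli1- replicate 2, the log2FC of *Pcolce* was 0.93, that of *Fmod* -0.26 against -1.23 over all libraries, and that of *Dpt* -0.10 against -1.29. Within each replicate number all 5 were lower in the Gli1+ library. Of 17 other collagen chains tested, 5 had a log2FC above 0 and 12 below, with a median of -0.51 and 0 called by edgeR, while DESeq2 with the block called *Col5a3* higher and *Col8a1* lower. *Col8a1*, a short-chain network collagen also named after its values were seen, measured 15.2, 23.2 and 6.88 CPM in the Gli1+ libraries and 69.9, 77.9 and 51.4 CPM in the Gli1- libraries, without overlap (log2FC -2.14, standard error 0.52, unadjusted p = 0.00331, edgeR).

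A pair of abundant genes outside the 10, picked after their values were seen, followed the library order of *Col6a3* closely. *Fn1*, which encodes fibronectin, was at 69100, 15100 and 55900 CPM in Gli1+ against 17200, 10100 and 24600 CPM in Gli1- cells. *Acan*, the core protein of cartilage proteoglycan, was at 2540, 677 and 2620 CPM in Gli1+ against 957, 591 and 1490 CPM in Gli1- cells. In both, as in *Col6a3*, replicate 2 was lowest within each population and each Gli1+ library was above the Gli1- library of its number. The log2FC was 1.44 for *Fn1* (standard error 0.79) and 0.94 for *Acan* (standard error 0.66). Their part in the values of *Col6a3* was not tested. Of the 8 chondrocyte markers, *Acan* among them, DESeq2 with the replicate block called 1, *Matn1*, lower (log2FC -3.35, adjusted p = 0.0279). *Matn1*, named after its values were seen, was at 0, 4.48 and 0.315 CPM in Gli1+ against 4.34, 43.2 and 0.37 CPM in Gli1- cells, with overlap. In edgeR its log2FC was -3.32, and -0.60 without Gli1- replicate 2.

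Markers of other collagen I producing cells were read beside collagens I and III. The 4 tendon markers summed to 106, 250 and 25.7 CPM in Gli1+ against 224, 1150 and 97.7 CPM in Gli1- cells, highest and lowest in the same libraries as *Col1a1*, *Col1a2* and *Col3a1*. All 4 had a log2FC below 0, with a median of -1.44, and were lower in the Gli1+ library of every replicate number. In the fit without a block, 3 of them turned when Gli1- replicate 2 was left out, *Tnmd* to 1.33, *Scx* to 0.93 and *Mkx* to 0.02. *Thbs4*, the most abundant, was at 18.6 to 180 CPM in Gli1+ against 85.0 to 890 CPM in Gli1- cells, with a log2FC of -2.03 that was -0.64 in the fit without that library. DESeq2 with the replicate block called *Thbs4* lower (adjusted p = 6.05e-05, between 6.05e-05 and 1.0 over the alternatives). The 10 markers of perichondrium and fibroblasts summed to 73.1 to 196 CPM in Gli1+ against 331 to 565 CPM in Gli1- cells, without overlap, and 8 of 9 tested had a log2FC below 0. This separation rested on *Pdgfra*, since the sums without it were 76.0, 114 and 29.9 CPM in Gli1+ cells and 125, 210 and 74.7 CPM in Gli1- cells, which overlapped. Within each replicate number the Gli1+ sum without *Pdgfra* was still the lower. The most abundant of these markers was *Pdgfra*, a receptor of stromal cells, at 85.4, 82.0 and 43.1 CPM in Gli1+ against 206, 355 and 264 CPM in Gli1- cells (log2FC -1.97, standard error 0.46, unadjusted p = 0.00249, edgeR). DESeq2 with the replicate block called *Pdgfra* (adjusted p = 4.17e-05, between 4.17e-05 and 1.0 over the alternatives), *Clec3b* and *Ly6a* lower, the last named after its values were seen. *Clec3b* was at 1.21 to 20 CPM in Gli1+ and 4.81 to 32 CPM in Gli1- cells, with overlap. *Ly6a* was at 0 to 6.75 and 2.64 to 30.4 CPM, also with overlap. In edgeR their log2FC was -1.10 and -2.49, and -0.30 and -1.13 without Gli1- replicate 2. Osteoblast markers summed to 20.2 to 48.6 CPM in Gli1+ against 21.8 to 59.0 CPM in Gli1- cells. Of these *Ibsp* was the most abundant at 7.56 to 44.2 CPM, *Bglap* was at 1.13 CPM or less, and *Sp7*, a transcription factor of the osteoblast lineage, was at 5.08, 8.72 and 9.56 CPM in Gli1+ cells and 0.672, 3.78 and 3.28 CPM in Gli1- cells, without overlap (log2FC 1.59, standard error 0.74, edgeR). The other osteoblast markers tested, *Ibsp* and *Alpl*, had a log2FC of -0.15 and -0.11. *Dmp1*, too rare to be tested, went the other way without overlap, at 0 to 0.368 CPM in Gli1+ and 0.476 to 2.72 CPM in Gli1- cells. The part of these cell types in the values of collagens I and III was not tested. Skeletal muscle markers summed to 1.06 to 36.0 CPM and macrophage markers to 19.5 to 157 CPM. The highest macrophage sum, in Gli1- replicate 2, was mostly *Cd68* (155 CPM). *Csf1r* and *Adgre1* were instead highest in Gli1- replicate 1, at 54.1 and 30.4 CPM, against at most 3.6 and 0.307 CPM elsewhere.

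**Figure D4:**
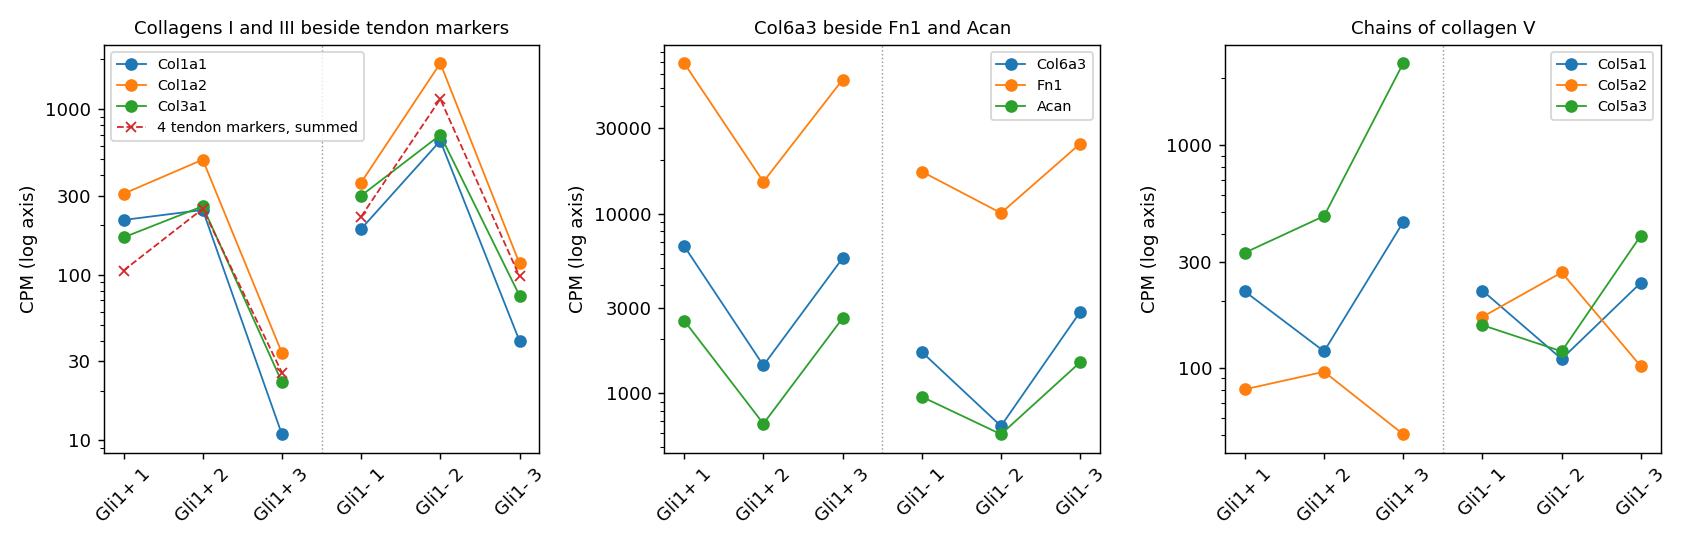
CPM on log axes by library, Gli1+ left and Gli1- right of the dotted line. Lines join points of 1 gene to guide the eye. *Col1a1*, *Col1a2* and *Col3a1* peak with the summed tendon markers in Gli1- replicate 2 (1150 CPM for the markers), *Col6a3* runs parallel to *Fn1* and *Acan*, and *Col5a3* reaches 2340 CPM in Gli1+ replicate 3, where *Col5a2* is lowest (50.5 CPM).

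The mean profile of the 10 genes, each centred on its own mean on the log2 CPM scale, was 0.51, 0.08 and -0.89 in Gli1+ and 0.10, 0.75 and -0.55 in Gli1- cells. It averages over members with opposite directions. Of 12862 other protein-coding genes, the 5 with the most similar profile over the 6 libraries were *Trmt2b* (Pearson r = 0.993), *Slc25a30* (0.992), *Ifi205* (0.991), *C1qtnf1* (0.982) and *Ccdc126* (0.980). These coefficients describe 6 libraries that differ in composition, and 4 of the 5 genes had at most 8.55 CPM in any library.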

How the data were processed

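RNA of 3 Gli1+ and 3 Gli1- cell samples was sequenced after poly-A selection, 1 library each. The authors deposited 1 table of raw read counts per gene, without normalization or pooling, and every per-sample column was used (0 left over). The submitters' processing notes name HISAT2 2.0.5, featureCounts 1.5.0-p3 and mm10. Of 54495 genes found in GENCODE M21, 98.3% had the same coordinates there. The annotation release and the use of strand are not given in the sources used here. Each gene's length is a deposited column.

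Low genes were removed by filterByExpr at a minimum count of 10, leaving 14801. Scaling was by TMM, and the quasi-likelihood test of edgeR was applied (edgeR 4.0.16, limma 3.58.1, DESeq2 1.42.0, R 4.3.3). Log2 CPM used a prior count of 2. Standard errors are the size of the log2FC divided by the root of F. Benjamini-Hochberg adjustment covered every tested gene. EdgeR with and without the block, DESeq2 without it and limma-voom were checked on simulated counts that held no replicate effect. DESeq2 with the replicate block was not checked in this way. Across genes, deviations from the population mean correlated at 0.223, 0.72 and 0.471 between the Gli1+ and Gli1- library of number 1, 2 and 3, and this was read as pairing. Gli1+ replicate 1 correlated slightly better with Gli1- replicate 3 (0.274). Per the paper, Gli1+ and Gli1- cells were taken from shared mice, and the labels do not tie a number to an animal. The fit without the block stayed the main one, because the study's methods state no block. The labels do not say that libraries of a population came from separate animals, although the paper calls them biological replicates, so p-values measure the spread between these libraries. The lowest count of a member was 63.

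The members and lists were chosen with earlier results of these data known. Named genes are the 10 members, *Gli1*, up to 5 most abundant genes of a list, genes called, and the 5 genes most alike in profile. Others are said to have been named after their values were seen. The 15 alternatives are scalings, filters, tools, the replicate block and each library left out. Fits with a library left out used no block, so the other library of that replicate number stayed in. Figures were drawn with matplotlib 3.10.9 in Python 3.11.15.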

Additional observations from a re-analysis of the deposited data

How the results depend on the processing

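Over the 15 alternatives, 6 of the 10 members kept the direction of their log2FC. The other 4 turned with 1 library left out, with ranges over the 6 such fits of -1.41 to 0.40 for *Col1a1*, -2.23 to 0.18 for *Col1a2*, -0.19 to 0.81 for *Col5a1* and -0.24 to 1.57 for *Col12a1*, and the cause was not tested. Among the ratios, *Col6a1* to *Col6a2* ran from -0.19 to 0.31 and *Col6a3* to *Col6a1* from -0.30 to 1.18 on the log2 scale with each library left out, collagen VI to collagens I and III from 0.75 without Gli1+ replicate 3 to 3.24, *Col5a1* to *Col5a2* from 0.77 without Gli1+ replicate 3 to 2.20, and fibrous to cartilage collagens from 0.26 without Gli1- replicate 2 to 1.81. The members' median ran from -0.72 to 0.29. Pairing by replicate number, the block of the ratios, left their differences as they were (1.53 for *Col5a1* to *Col5a2*), and 3 pairs cannot give a p under 0.25 in an exact test. Where edgeR called 0 genes (514 at an unadjusted p under 0.05), no filter on low counts (28536 genes tested) gave 20 higher and 247 lower, DESeq2 gave 15 higher and 15 lower, and DESeq2 with the replicate block gave 115 higher and 313 lower, of which 3 were members. EdgeR with the replicate block called 0 genes and 0 members, and the median log2FC of the members was -0.35. It changed no call. No filter moved the median of all genes by -0.111, and leaving out Gli1+ replicate 2 moved it by -0.101 and the median of the other collagens to -1.06. The biological coefficient of variation was 0.662, and 0.466 with the block, while every member had at least 63 counts in a library.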
